A study of Mus musculus with 8 samples.

Results

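The genes described here encode chemokines, cytokines and an adhesion molecule that tumour cells use to attract and hold leukocytes. They were taken from the deposited table by symbol: Cxcl1, Cxcl2, Cxcl5, Cxcl16, Ccl2, Ccl20, Csf1, Il1a, Il18 and Icam1. All 10 were found among its 24907 symbols. Their messenger RNA was measured by RNA sequencing in 8 libraries of ASZ001, an established line of mouse basal cell carcinoma cells. One set of cells carried a non-silencing shRNA and the other an shRNA targeting Tgfbr1, which encodes the type I TGF-beta receptor, and each was given either DMSO or Dox with 4OHT. The 4 groups, with 2 libraries in each, are called NS-DMSO, NS-Ras, KD-DMSO and KD-Ras (KD, knockdown), and NS cells and KD cells stand for both groups of an shRNA. The Ras libraries are those given Dox with 4OHT, labelled RasV12, an activated form of Ras. Since no library received Dox with 4OHT and lacked RasV12, the drugs and Ras cannot be told apart, and the term Ras response covers both. KD and NS cells are separate sets of cells with different shRNAs. Lower Tgfbr1 and any other difference between these sets cannot be told apart, and the term knockdown covers both. The labels give no dose, time or number of clones, and do not say whether a group's libraries are separate cultures, so the spread behind every p-value may be technical.

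Chemokines are small secreted proteins that guide leukocytes along a gradient through G protein-coupled receptors. Members of the CXC class such as Cxcl1, Cxcl2 and Cxcl5 act on CXCR2 and draw neutrophils, Ccl2 draws monocytes through CCR2, and Ccl20 draws CCR6-bearing dendritic and T cells. Csf1 is the survival and growth factor of macrophages, Il1a and Il18 are IL-1 family alarm cytokines that epithelial cells store, and Icam1 is the ligand by which leukocyte integrins hold on to other cells. Many of these genes are known targets of NF-kB and AP-1 transcription factors in keratinocytes.

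Library totals ran from 12724604.5 to 16233379 counts. Tgfbr1, the targeted gene, was at 77.1 to 104 CPM (read counts scaled to library size) in the 4 NS libraries and at 8.08 to 10.2 CPM in the 4 KD libraries, so the libraries matched their shRNA labels. Replicates correlated at 0.9965 to 0.9973 over the tested genes, on a log scale, genes not being independent replicates, and counts of a pair differed beyond sampling noise (chi-square per degree of freedom 2.31 to 12.8). The ribosomal RNA gene Rn45s held 0.387% to 2.76% of a library and was 2.49% and 2.57% in the KD-Ras libraries, where most of the 10 genes were highest. The chi-square included Rn45s and was largest in NS-Ras (12.8) and KD-DMSO (8.02) cells. There Rn45s held 0.916% and 2.76%, and 0.387% and 1.36%, of the libraries. The chi-square without Rn45s was not computed, so its upper values cannot be read as the spread of most genes. With Rn45s left out of the fit, the same number of the 10 genes passed in every comparison.

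Most of the 10 genes were far higher in KD than in NS cells, and most rose further under Ras in KD cells. In NS cells 4 of the 9 tested genes passed with Ras, a share near that of all genes. A gene is said to pass where edgeR's quasi-likelihood test gave a Benjamini-Hochberg adjusted p under 0.05 over all 12538 genes tested. Cxcl2 had too few counts for the test, so 9 of the 10 were tested. In KD-DMSO against NS-DMSO cells, 7 were higher and 1 was lower, where 30.9% of all tested genes were higher and 31.0% lower (61.9% in either direction). In KD-Ras against NS-Ras cells, 8 were higher and none lower, against 30.5% higher and 29.7% lower of all tested genes (60.2% in either direction). With Ras in KD cells 8 rose and none fell, against 19.5% and 16.6% of all genes (36.1% in either direction). In these last 2 comparisons 0 of the 9 were lower at an unadjusted p under 0.05 by edgeR, and 0 passed as lower by DESeq2. With Ras in NS cells 3 rose and 1 fell, against 20.8% and 21.3% of all genes (42.1% in either direction). The median log2 change of the 9 genes was 2.76 for the knockdown without Ras, 3.14 for the knockdown with Ras, 1.38 for Ras in KD cells and 0.16 for Ras in NS cells. Over all tested genes these medians lay between -0.01 and 0.00. These comparisons share groups (each group serves in more than 1 of them), so they are not independent of each other.

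**Figure D1:**
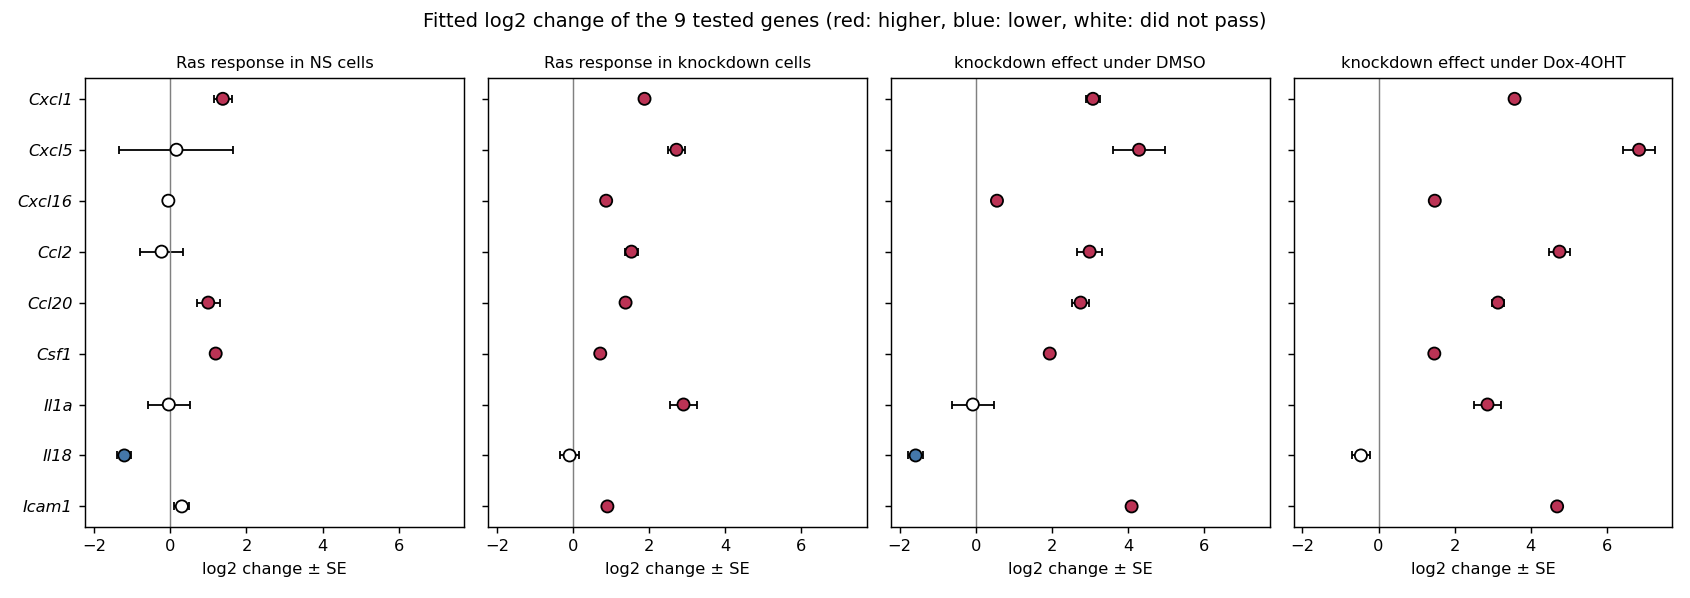
Fitted log2 change (x axis, with its standard error) of the 9 tested genes (y axis) in each of 4 comparisons; red points passed as higher, blue as lower, white did not pass. The Icam1 knockdown changes of 4.10 and 4.70 contrast with its Ras responses of 0.30 and 0.90, and in NS cells the Ras response of no gene exceeds 1.38; the points of Cxcl5 against NS cells rest on 0 to 2 counts per NS library.

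The neutrophil chemokine genes were led by Cxcl1, whose product is the mouse counterpart of human GRO chemokines. It was at 1.27 and 1.85 CPM in NS-DMSO cells and at 3.82 and 4.06 CPM in NS-Ras cells. In KD-DMSO cells it was at 13.4 and 12.5 CPM and in KD-Ras cells at 45.2 and 50.3 CPM. The libraries of the 4 groups did not overlap, and each KD library was above every NS library. Cxcl1 was higher in KD cells by 3.08 ± 0.18 (SE) on the log2 scale without Ras (adjusted p = 4.13e-14) and by 3.58 ± 0.12 with Ras (adjusted p = 1.4e-19). Its Ras response was 1.38 ± 0.24 in NS cells (adjusted p = 3.86e-05) and 1.88 ± 0.09 in KD cells (adjusted p = 6.2e-15). The difference of these Ras responses, 0.50 ± 0.28, did not pass (adjusted p = 0.167).

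Cxcl5, which encodes another CXCR2 ligand, was nearly absent from NS cells. It had 2 and 0.5 counts in the NS-DMSO libraries and 0 and 1.5 in the NS-Ras libraries, all at or below 0.124 CPM. In KD-DMSO cells it was at 1.37 and 1.51 CPM and in KD-Ras cells at 10.3 and 8.99 CPM. With counts this low in NS cells the size of the difference is poorly fixed: the ratio of KD to NS cells was 14.7 without Ras (95% interval 4.69 to 74.3, exact binomial on counts rounded up to whole numbers, counting error only) and 129 with Ras (35.4 to 1071). Cxcl5 passed in both knockdown comparisons (adjusted p = 3.21e-06 and 6.93e-14) and in the Ras response of KD cells, at 2.72 ± 0.23 on the log2 scale (adjusted p = 3.12e-10). Leaving out single NS libraries moved the fitted knockdown change between 3.47 and 7.34 without Ras (NS-DMSO replicates 2 and 1) and between 5.96 and 10.1 with Ras (NS-Ras replicates 1 and 2), and it passed each time. In NS cells no response to Ras was detectable at this depth.

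Cxcl2, the closest relative of Cxcl1 in this set, stayed near the limit of detection in all 8 libraries. It had no counts in the NS-DMSO libraries, which allows up to 0.0995 CPM over the group, 1.5 and 1 counts in the NS-Ras libraries, 0 and 2.5 in KD-DMSO and 3.5 and 7 in KD-Ras. The highest library thus held 0.547 CPM. The ratio of KD-Ras to NS-Ras cells was 3.47, with an interval of 0.916 to 19.3 that includes no difference. The adjusted p without the filter on low counts was 0.168 to 0.704 over the 5 comparisons. Reads that also match related genes may have been divided between Cxcl2, Cxcl1 and Cxcl3, and how the counting treated them is not given in the sources used here.

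Cxcl1 and Cxcl2 are direct neighbours in a cluster of CXC chemokine genes on chromosome 5 that also holds Cxcl5, Ppbp, Pf4, Cxcl3 and Cxcl15 (gene order from the RefSeq annotation of GRCm38.p6). The levels within the cluster were uneven: Cxcl15 and Pf4 had at most 1 count in any library and Cxcl3 had counts only in the KD-Ras libraries, 8 and 1.5. Ppbp had 1.5 to 8 counts in the KD libraries and 0 to 2 in the NS libraries. The start regions of Cxcl1 and Cxcl2 are shown because the 2 genes carry the same kappa-B letters at a similar place while their levels differed widely. The sequences are the 250 bases before the start of each gene, from the RefSeq start regions of GRCm38.p6, which is not the mm9 build of the counts. Cxcl1 is from chr5:90890995-90891244 and Cxcl2 from chr5:90903649-90903898, both on the plus strand. Capitals mark the match to the kappa-B consensus of NF-kB on either strand, here overlapping matches on both strands.
Cxcl1: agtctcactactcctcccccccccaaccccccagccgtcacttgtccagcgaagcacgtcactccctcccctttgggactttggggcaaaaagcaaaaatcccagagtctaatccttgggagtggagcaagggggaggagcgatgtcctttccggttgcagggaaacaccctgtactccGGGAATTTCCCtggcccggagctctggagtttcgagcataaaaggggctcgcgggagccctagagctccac
Cxcl2: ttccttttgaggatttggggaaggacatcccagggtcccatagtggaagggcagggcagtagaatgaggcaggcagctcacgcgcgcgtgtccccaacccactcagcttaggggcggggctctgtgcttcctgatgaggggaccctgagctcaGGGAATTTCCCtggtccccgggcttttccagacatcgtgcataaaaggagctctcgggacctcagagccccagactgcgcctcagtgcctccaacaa
In Cxcl1 the match started at position -71 and in Cxcl2 at -97, counted from 0 at the first base of the gene. Cxcl1 reached 47.8 ± 3.57 CPM (mean ± SD, n = 2) in KD-Ras cells and Cxcl2 0.388 ± 0.226 CPM. RefSeq start regions (these 250 bases and the first 50 of the gene, all of them searched) were matched for 7 of the 10 genes, all but Cxcl5, Cxcl16 and Ccl2. Of these 7, 4 held the kappa-B consensus (Cxcl1, Cxcl2, Ccl20 and Csf1), as did 8.46% of 32851 start regions. The AP-1 site TGANTCA was in 1 of the 7 (7.81% of all), the ETS core CCGGAA in 2 (14.9% of all) and TATAAA in 3 (13.6% of all), each searched on both strands. Of the TATAAA matches 2 lay on the coding strand (Il1a at -32 and Icam1 at 13) and 1 on the other (Il18). These are matches of letters only.

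**Figure D2:**
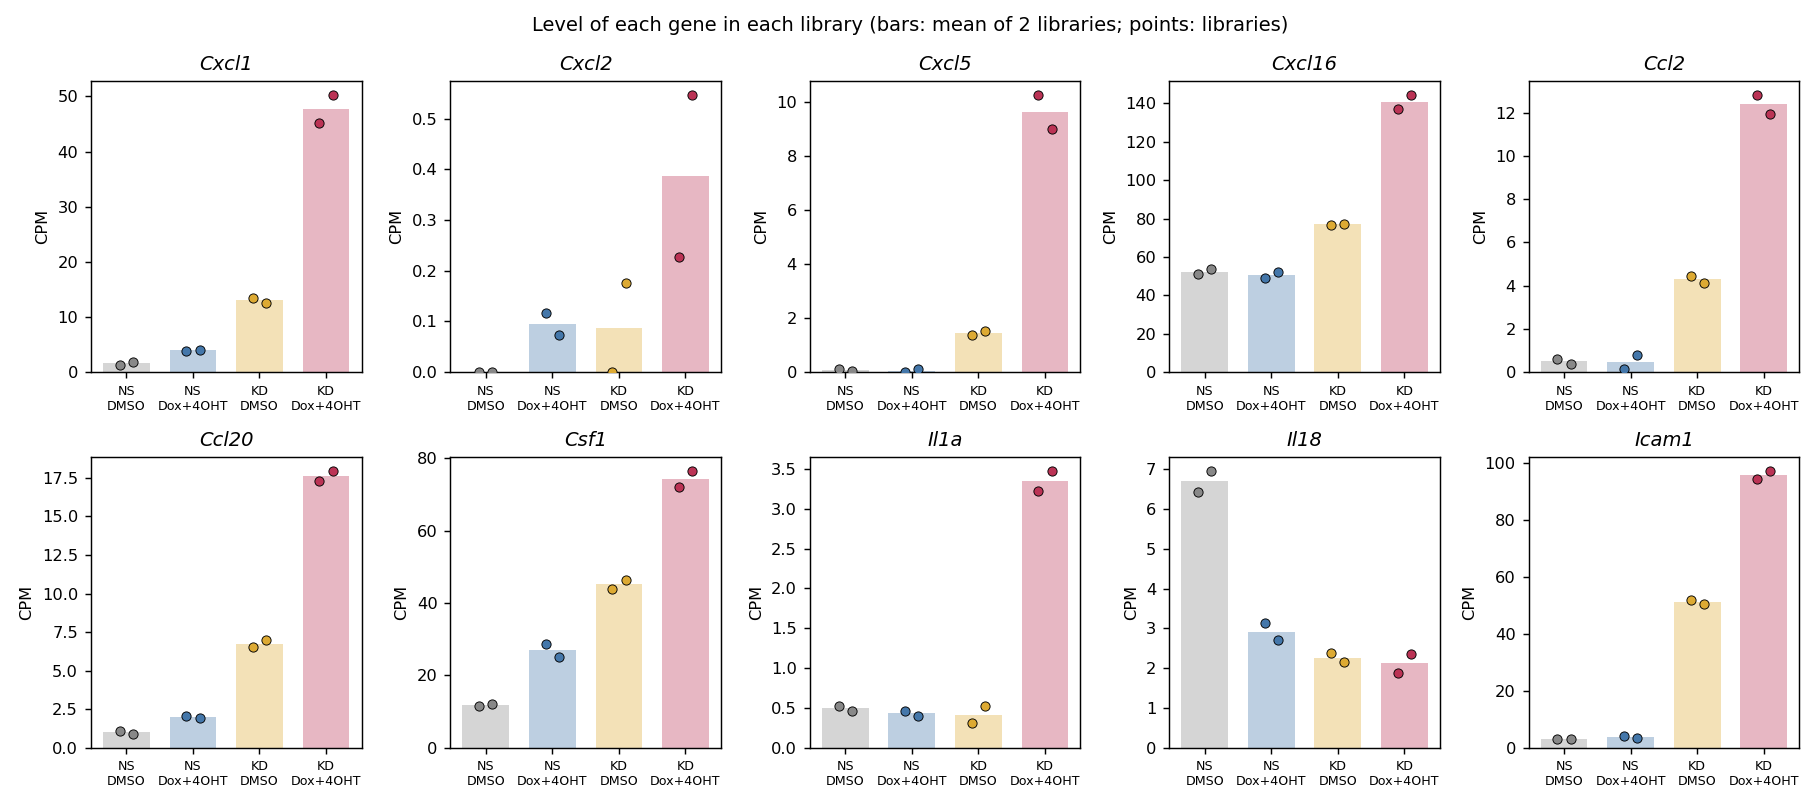
CPM (y axis, linear, each panel with its own scale) of the 10 genes in the 4 groups (x axis; KD, knockdown); points are the 2 libraries of a group and bars their mean. Dox+4OHT marks the Ras groups. In 9 panels the KD-Ras libraries are the highest, and Il18 is the exception, highest in NS-DMSO cells at 6.44 and 6.96 CPM.

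Of the CC chemokine genes, Ccl2, which encodes the monocyte attractant MCP-1, was at 0.622 and 0.391 CPM in NS-DMSO cells and at 0.154 and 0.769 CPM in NS-Ras cells. It was at 4.43 and 4.15 CPM in KD-DMSO cells and at 12.8 and 12.0 CPM in KD-Ras cells. The NS groups overlapped and lay below all KD libraries. Ccl2 was higher in KD cells by 2.99 ± 0.33 on the log2 scale without Ras (adjusted p = 7.87e-09) and by 4.76 ± 0.27 with Ras (adjusted p = 2.09e-14). The latter was 4.07 without NS-Ras replicate 1 and 6.26 without NS-Ras replicate 2, and passed in both cases. It rose with Ras by 1.53 ± 0.17 in KD cells (adjusted p = 3.08e-08), and its change in NS cells was -0.23 ± 0.57 (adjusted p = 0.775). The difference between the Ras responses passed (1.77 ± 0.60, adjusted p = 0.0203) but did not without NS-DMSO replicate 1 (1.45, adjusted p = 0.193) or without NS-Ras replicate 1 (1.07, adjusted p = 0.158), and was 3.25 without NS-Ras replicate 2, the adjusted p ranging from 0.00256 to 0.193 over all alternatives.

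Ccl20, the CCR6 ligand, was at 1.09 and 0.888 CPM in NS-DMSO cells and at 2.08 and 1.90 CPM in NS-Ras cells. In KD-DMSO cells it was at 6.53 and 6.96 CPM and in KD-Ras cells at 17.3 and 18.0 CPM. No groups overlapped. Ccl20 was higher in KD cells by 2.76 ± 0.22 without Ras (adjusted p = 2.88e-11) and by 3.14 ± 0.16 with Ras (adjusted p = 2.09e-15). Its Ras response was 1.38 ± 0.12 in KD cells (adjusted p = 8.87e-10) and 1.00 ± 0.30 in NS cells (adjusted p = 0.00888). The latter did not pass without NS-DMSO replicate 2 (0.83, adjusted p = 0.0754) or NS-Ras replicate 1 (0.94, adjusted p = 0.0526), in a range of 0.00858 to 0.0754 over all alternatives. The difference between the responses did not pass (0.38 ± 0.34, adjusted p = 0.423).
Its start region, shown because it holds a kappa-B match on the minus strand (capitals, from position -80), lies at chr1:83116516-83116765 on the plus strand.
Ccl20: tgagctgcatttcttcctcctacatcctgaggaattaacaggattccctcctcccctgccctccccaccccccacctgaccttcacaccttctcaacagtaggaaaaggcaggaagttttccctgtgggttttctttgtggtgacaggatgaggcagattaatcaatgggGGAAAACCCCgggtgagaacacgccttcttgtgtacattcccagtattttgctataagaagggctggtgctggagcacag

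Cxcl16 differs from the other chemokines in being made as a membrane protein, which binds CXCR6 and scavenges oxidised lipoprotein, and its ectodomain is shed by ADAM10. It was at 51.2 and 53.5 CPM in NS-DMSO cells, at 48.8 and 52.0 CPM in NS-Ras cells, at 76.9 and 77.0 CPM in KD-DMSO cells and at 137 and 144 CPM in KD-Ras cells. The NS groups overlapped. In NS cells its change with Ras was -0.05 ± 0.06 (log2, adjusted p = 0.504), whereas in KD cells it rose by 0.87 ± 0.05 (adjusted p = 7.93e-14). The difference of 0.92 ± 0.08 passed (adjusted p = 2.95e-10). In KD cells Cxcl16 was higher by 0.56 ± 0.05 without Ras (adjusted p = 1.21e-09) and by 1.48 ± 0.05 with Ras (adjusted p = 4.49e-19). The annotation places Zmynd15 over part of the gene, and Zmynd15 followed a similar course, at 16.0 and 17.1 CPM, 15.1 and 18.2 CPM, 24.5 and 26.6 CPM and 46.7 and 50.4 CPM in the same order of groups. Without the strand setting, which reads belong to which of these overlapping genes cannot be told.

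Csf1, the macrophage growth factor gene, was at 11.4 and 12.0 CPM in NS-DMSO cells and at 28.6 and 25.2 CPM in NS-Ras cells. In KD-DMSO cells it was at 44.0 and 46.4 CPM and in KD-Ras cells at 72.0 and 76.6 CPM. No groups overlapped, and the order of the groups was that of Cxcl1 and Ccl20. The annotation places Gm40121, not analysed here, over part of the gene. Csf1 was higher in KD cells by 1.94 ± 0.09 without Ras (adjusted p = 5.67e-17) and by 1.47 ± 0.07 with Ras (adjusted p = 2.44e-16). Its level rose under Ras, by 1.19 ± 0.10 (adjusted p = 5.34e-11) in NS cells and by 0.71 ± 0.06 in KD cells (adjusted p = 4.94e-10). The rise in KD cells was the smaller, with a difference of -0.48 ± 0.12 on the log2 scale (adjusted p = 0.00158). Csf1 was the 1 gene of the 9 whose difference between the Ras responses passed with a negative sign.
Its start region at chr3:107760470-107760719 on the minus strand is shown for its kappa-B match (capitals, from position -154). The match is on the strand opposite to the one shown.
Csf1: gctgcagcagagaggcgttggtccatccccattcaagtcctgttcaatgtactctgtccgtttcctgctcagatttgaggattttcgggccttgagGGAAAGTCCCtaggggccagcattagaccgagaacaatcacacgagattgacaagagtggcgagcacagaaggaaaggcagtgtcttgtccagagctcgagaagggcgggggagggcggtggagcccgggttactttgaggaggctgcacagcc

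The IL-1 family genes Il1a and Il18 departed from the pattern of the chemokines, each in its own way. Il1a encodes IL-1 alpha, which is active as a precursor and is released from damaged keratinocytes. It was at 0.529 and 0.462 CPM in NS-DMSO cells, 0.463 and 0.403 CPM in NS-Ras cells, 0.306 and 0.527 CPM in KD-DMSO cells and 3.22 and 3.48 CPM in KD-Ras cells. The 6 libraries of the first 3 groups, with 4 to 8.5 counts each, overlapped, and the other 2 held 49.5 and 44.5 counts. Il1a rose with Ras in KD cells by 2.90 ± 0.36 on the log2 scale (adjusted p = 2.22e-07), and in NS cells the change was -0.04 ± 0.56 (adjusted p = 0.961). The difference of 2.94 ± 0.70 passed (adjusted p = 0.00124). With Ras it was higher in KD than in NS cells by 2.86 ± 0.36 (adjusted p = 7.83e-08), and without Ras the change was -0.08 ± 0.56 (adjusted p = 0.91). Smaller changes among the first 3 groups were not detectable at this depth. The overlapping entry Gm14023 held 9.5 to 20 counts per library and was at 0.782 and 1.33 CPM in the libraries where Il1a was high.
Il1a alone of the 7 start regions held an AP-1 site (capitals, from position -12), a pattern that matches on both strands. The region is chr2:129309973-129310222 on the minus strand.
Il1a: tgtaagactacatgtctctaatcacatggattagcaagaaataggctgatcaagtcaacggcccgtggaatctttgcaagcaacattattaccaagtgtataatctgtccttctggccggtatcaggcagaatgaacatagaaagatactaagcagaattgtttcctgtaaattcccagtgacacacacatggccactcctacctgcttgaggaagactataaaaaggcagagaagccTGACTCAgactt

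Il18, whose product IL-18 is activated by caspase-1 and drives interferon gamma release by lymphocytes, was highest in NS-DMSO cells, at 6.44 and 6.96 CPM. It was at 3.13 and 2.71 CPM in NS-Ras cells, 2.37 and 2.14 CPM in KD-DMSO cells and 1.89 and 2.34 CPM in KD-Ras cells. The last 2 groups overlapped. Il18 fell with Ras in NS cells, with a log2 change of -1.21 ± 0.19 (adjusted p = 6.95e-06), and was lower in KD-DMSO cells, with -1.58 ± 0.20 (adjusted p = 9.31e-08). With Ras in KD cells the change was -0.09 ± 0.26 (adjusted p = 0.817) and between KD-Ras and NS-Ras cells -0.46 ± 0.24 (adjusted p = 0.103). The difference between the Ras responses was 1.12 ± 0.32 (adjusted p = 0.00702) and did not pass by DESeq2 (adjusted p = 0.0768) or without KD-Ras replicate 2 (0.97, adjusted p = 0.0532), in a range of 0.00587 to 0.0768 over all alternatives. Of the genes annotated over part of Il18, Bco2 was at 1.09 to 1.83 CPM in all libraries and Tex12 had at most 1 count.

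Icam1 encodes the membrane ligand of the integrins LFA-1 and Mac-1 of leukocytes and had the largest knockdown change of those of the 10 genes that were above 1 CPM in every library. It was at 2.89 and 3.09 CPM in NS-DMSO cells and at 4.17 and 3.26 CPM in NS-Ras cells, groups that did not overlap. In KD-DMSO cells it was at 51.9 and 50.5 CPM and in KD-Ras cells at 94.2 and 97.2 CPM. Its log2 change with the knockdown was 4.10 ± 0.11 without Ras (adjusted p = 5.64e-22) and 4.70 ± 0.09 with Ras (adjusted p = 2.6e-24), 17.1-fold and 25.8-fold between group means. With Ras it rose in KD cells by 0.90 ± 0.06 (adjusted p = 8.69e-13), and its change in NS cells was 0.30 ± 0.20 (adjusted p = 0.246). The difference of 0.60 ± 0.21 (adjusted p = 0.0232) did not pass by DESeq2 (adjusted p = 0.0598), without NS-DMSO replicate 1 (0.66, adjusted p = 0.058) or replicate 2 (0.53, adjusted p = 0.118), or without NS-Ras replicate 2 (0.42, adjusted p = 0.198), in a range of 0.0146 to 0.198 over all alternatives. Its neighbours Icam4 and Icam5 were at 0.232 to 0.782 CPM and 0.619 to 2.56 CPM, and Icam5 was highest in NS-DMSO cells.
The Icam1 start region (chr9:21015690-21015939, plus strand) is shown because the gene had the largest knockdown change among the tested genes with a matched region. It holds 3 matches to the ETS core, in capitals, from positions -86 (plus strand), -65 (minus strand) and -39 (plus strand). No match to the full kappa-B consensus (GGGRNNYYCC, R for A or G, Y for C or T) lies within this window. The stretch tggaaattcc in it differs from that consensus in the first base only, and its role was not tested.
Icam1: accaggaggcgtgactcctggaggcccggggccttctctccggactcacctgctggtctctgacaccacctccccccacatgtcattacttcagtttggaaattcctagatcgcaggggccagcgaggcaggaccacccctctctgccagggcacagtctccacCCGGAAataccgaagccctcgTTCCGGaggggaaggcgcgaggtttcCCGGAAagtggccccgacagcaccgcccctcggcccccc

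The design also asks whether the 2 changes together gave what each gave alone. The comparison of the Ras response in KD cells with that in NS cells passed for 6 of the 9 genes, 5 with a larger response in KD cells (Cxcl16, Ccl2, Il1a, Il18 and Icam1) and 1 with a smaller one (Csf1). Of all tested genes 20.2% passed as larger and 18.0% as smaller (38.2% in either direction). For Il18 the positive sign means that a fall in NS cells had no counterpart that passed in KD cells. Had the 2 changes multiplied, Cxcl16 would have reached 74.1 CPM in the combined group, and 141 ± 5.24 CPM (mean ± SD, n = 2) was measured. Il1a was at 9.21 times, Ccl2 at 3.17 times and Icam1 at 1.51 times that product, and Csf1, at 74.3 ± 3.23 CPM against 103 CPM, at 0.719 times. Cxcl1 and Ccl20, at 1.46 and 1.30 times, did not pass. Cxcl5 was at 9.71 times with a log2 difference of 2.56 ± 1.60 that did not pass (adjusted p = 0.224), its NS libraries holding 0 to 2 counts.

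**Figure D3:**
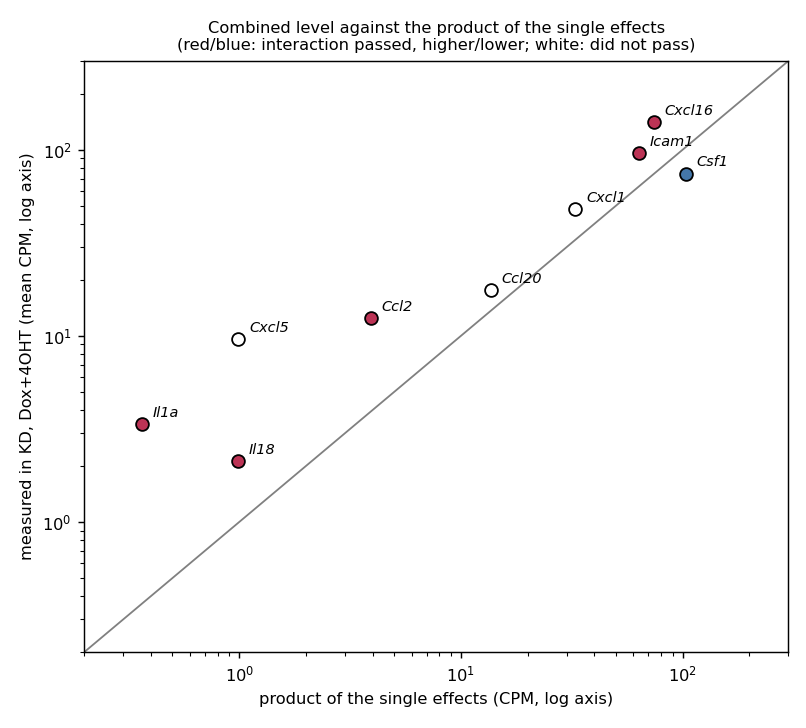
Mean CPM measured in KD-Ras cells (y axis, log) against the product of the single effects, the KD-DMSO level times the NS-Ras level divided by the NS-DMSO level (x axis, log), for the 9 tested genes; the line marks equality, and red or blue points passed the test of the difference between the Ras responses. All points but Csf1 lie above the line, among them Cxcl1, Ccl20 and Cxcl5 that did not pass.

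Levels of different genes were compared as CPM per kilobase, with the transcript lengths of the deposited table. In NS-DMSO cells Cxcl16 led at 31.0 ± 0.971 CPM per kilobase (mean ± SD, n = 2), at the 76.7th percentile of all tested genes. Il18 followed at 5.20 ± 0.289 and Csf1 at 2.82 ± 0.102 CPM per kilobase. Cxcl1, Ccl20 and Icam1 came next at 1.66 ± 0.429, 1.24 ± 0.178 and 1.16 ± 0.0547, where the libraries of Cxcl1 and Ccl20 overlapped, as did those of Ccl20 and Icam1. Ccl2 (0.632), Il1a (0.252), Cxcl5 (0.0485) and Cxcl2 (0 counts) were lower. In KD-Ras cells Cxcl16 still led, at 83.5 ± 3.11 CPM per kilobase and the 93.3rd percentile. Cxcl1 was now second at 50.7 ± 3.78 (86.6th percentile), then Icam1 at 37.3 ± 0.839 (80.7th percentile) and Ccl20 at 22.2 ± 0.602. Csf1 was at 17.8 ± 0.775, Ccl2 at 15.5 ± 0.774 and Cxcl5 at 5.83 ± 0.546 CPM per kilobase, and these neighbours did not overlap. Il1a and Il18, at 1.71 ± 0.0910 and 1.64 ± 0.250, did overlap, and Cxcl2 was last at 0.360 ± 0.209. Il18 thus went from rank 2 to rank 9. In NS-Ras cells the order was Cxcl16, Csf1, Cxcl1, Ccl20, Il18, Icam1, Ccl2, Il1a, Cxcl2 and Cxcl5, with overlap between Ccl20 and Il18 and between Ccl2 and Il1a. In KD-DMSO cells Icam1 was second, at 19.9 ± 0.398 CPM per kilobase, ahead of Cxcl1 at 13.8 ± 0.674.

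**Figure D4:**
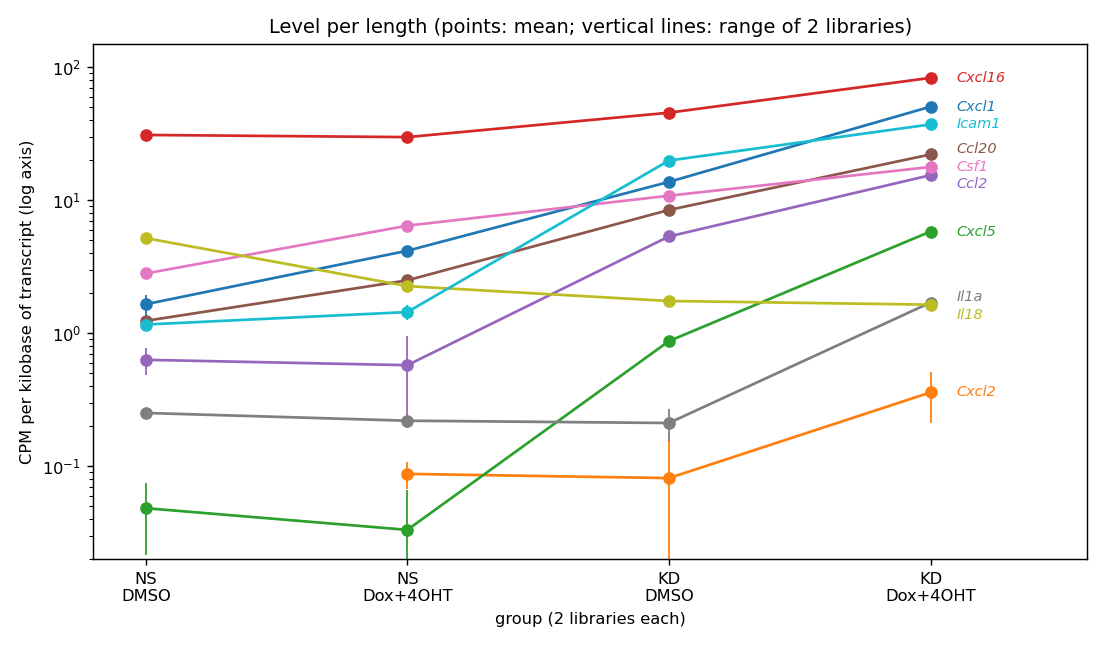
CPM per kilobase of transcript (y axis, log) of the 10 genes in the 4 groups (x axis); points are means and vertical lines the range of 2 libraries, cut at the lower edge of the axis where a library holds 0 counts, and Cxcl2 has no point in NS-DMSO cells, where it had 0 counts. Cxcl16 is highest in each group, and Il18 is passed by 7 of the other genes between the first and the last group.

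The genes whose course over the 8 libraries was most like that of 3 of the genes were listed by Pearson's correlation of log2 CPM among 9968 genes, as a description; the 8 points form 4 groups, so a high value mainly reflects 4 means. Nearest to Icam1 was Plcg1, which encodes phospholipase C gamma 1 (r = 0.9996, n = 8), at 85.0 and 86.9 CPM in NS-DMSO cells and 150 and 152 CPM in KD-DMSO cells, a much smaller step than that of Icam1. Capn5, a calpain gene, and Pkp2, which encodes the desmosomal protein plakophilin, followed for Icam1 (r = 0.999 and 0.998). Nectin2, an adhesion molecule gene, was nearest to Cxcl1 (r = 0.997), at 10.2 and 10.9 CPM in NS-DMSO cells and 45.4 and 44.2 CPM in KD-Ras cells, followed by Plch2 and Stx3 (both 0.996). Nearest to Csf1 was the focal adhesion kinase gene Ptk2 (r = 0.998), followed by Hmga1b (0.998) and Hmga1 (0.997), near-identical genes that may share reads.

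Further genes of the same pathways were counted from lists, each to be read against the share of all tested genes that passed. Of 31 other chemokine genes 6 had enough counts for the test, and 1 was higher and 1 lower in KD cells under either treatment, where 61.9% of all genes passed without Ras and 60.2% with Ras. Cx3cl1, a membrane-bound chemokine like Cxcl16, was higher in KD cells by 0.23 ± 0.05 without Ras (adjusted p = 0.00054) and by 0.33 ± 0.05 with Ras (adjusted p = 1.38e-06), and rose with Ras by 0.54 ± 0.05 in NS cells and 0.64 ± 0.05 in KD cells. Ccl27a, a skin chemokine gene, was lower in KD-DMSO cells (-1.39 ± 0.49, adjusted p = 0.0159), at 0.191 and 0.738 CPM against 1.21 and 1.07 CPM. Cxcl14, which keratinocytes make constitutively, was lower in KD-Ras cells (-0.39 ± 0.07, adjusted p = 3.11e-05). It fell with Ras in NS cells (-0.18 ± 0.07, adjusted p = 0.0318) and in KD cells (-0.50 ± 0.07, adjusted p = 2.15e-06). The difference, -0.32 ± 0.10, passed (adjusted p = 0.00921).

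Among 35 other cytokine genes 17 were tested. With Ras 15 of the 17 rose in KD cells (median log2 change 1.09), where 19.5% of all genes rose. In NS cells 5 rose and 1 fell (0.16), where 20.8% of all genes rose and 21.3% fell. With the knockdown 8 were higher and 4 lower without Ras (0.45), against 30.9% and 31.0% of all genes, and 11 and 2 with Ras (1.13), against 30.5% and 29.7%. Tnfsf15, which encodes the TNF family ligand TL1A, was at 4.10 and 3.77 CPM in NS-DMSO cells and 8.97 and 8.68 CPM in KD-DMSO cells. It was at 3.94 and 3.92 CPM in NS-Ras cells and 25.2 and 25.0 CPM in KD-Ras cells, a difference between the Ras responses of 1.5 ± 0.21 (adjusted p = 2.46e-06). Clcf1, an IL-6 family cytokine gene, rose with Ras in KD cells by 1.28 ± 0.13. Spp1, which encodes osteopontin, rose with Ras in NS cells from 3.76 and 2.42 to 17.0 and 19.4 CPM. It was at 1.68 and 1.62 CPM in KD-DMSO cells and at 3.55 and 3.05 CPM in KD-Ras cells. Lif, an IL-6 family cytokine gene, rose with Ras in NS cells by 0.83 ± 0.10. Kitl, the stem cell factor gene, was lower in KD cells under both treatments (-0.91 ± 0.05 and -1.27 ± 0.05). Mif, the macrophage migration inhibitory factor gene, was lower in KD-DMSO cells (-0.44 ± 0.05), and its Ras responses differed by 0.59 ± 0.07.

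Of 17 IL-1 family receptor and regulator genes 13 were tested. With the knockdown 4 were higher and 4 lower without Ras and 6 and 2 with Ras, both close to the 61.9% and 60.2% of all genes that passed in either direction. With Ras 1 rose and 2 fell in NS cells, where 42.1% of all genes passed, and 5 rose and 1 fell in KD cells, where 36.1% passed. Il1rn, whose product blocks the IL-1 receptor, fell with Ras in NS cells from 7.18 and 5.83 to 1.89 and 2.64 CPM (-1.54 ± 0.21, adjusted p = 1.1e-06). In KD-DMSO cells it was at 4.20 and 4.99 CPM and in KD-Ras cells at 4.30 and 5.04 CPM, so the Ras responses differed by 1.54 ± 0.29 (adjusted p = 0.000123), as for Il18. Il1rl2, the IL-36 receptor gene, also fell with Ras in NS cells (-0.45 ± 0.11). Il1r1, the receptor of IL-1 alpha, was lower in KD cells under both treatments (-0.52 ± 0.08 and -0.82 ± 0.08), as was Tollip, an inhibitor of IL-1 receptor signalling (-1.15 ± 0.05 and -0.82 ± 0.05). Il18rap, a subunit of the IL-18 receptor, was at 8.53 and 7.62 CPM in KD-Ras cells and at 0.497 to 2.25 CPM in the other 6 libraries, and Irak2, a kinase of the pathway, rose with Ras in KD cells by 0.80 ± 0.14.

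Receptors for the 10 proteins were mostly below the filter, with 3 of 12 tested. Csf1r, the Csf1 receptor gene, had 15 counts in NS-DMSO, 1 in NS-Ras, 27 in KD-DMSO and 73 in KD-Ras cells. The ratio of KD-Ras to NS-Ras cells was 69.0 (95% interval 12.0 to 2763, counting error only). In KD cells Csf1r rose with Ras by 1.39 ± 0.33 (adjusted p = 0.00138) and Il18r1, an IL-18 receptor gene, by 0.87 ± 0.33 (adjusted p = 0.0466), though the libraries of Il18r1 overlapped. Of 17 genes of maturation and shedding 9 were tested, with 7 higher and 1 lower in KD-DMSO cells, against 30.9% and 31.0% of all genes, and 6 and 1 in KD-Ras cells, against 30.5% and 29.7%. With Ras 3 rose and 3 fell in NS cells, where 20.8% and 21.3% of all genes did, and 4 rose in KD cells, where 19.5% did. The calpain genes Capn1 and Capn2, whose products cleave the IL-1 alpha precursor, were higher in KD-Ras cells by 1.14 ± 0.05 and 0.66 ± 0.04, and Rhbdf2, a partner of the sheddase ADAM17, rose with Ras in KD cells by 0.65 ± 0.06. In NS cells Capn1 fell with Ras (-0.53 ± 0.05), while the small calpain subunit gene Capns1 rose (0.50 ± 0.04).

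Of 18 other adhesion molecule genes 9 were tested, with 6 higher and 3 lower in KD-DMSO cells and 7 and 2 in KD-Ras cells, where 61.9% and 60.2% of all genes passed in either direction. With Ras 3 rose and 2 fell in NS cells and 6 rose and 2 fell in KD cells, where 42.1% and 36.1% of all genes passed. Alcam, an immunoglobulin family adhesion gene, was higher in KD cells by 1.45 ± 0.07 without Ras and 1.49 ± 0.07 with Ras, and Cd44, the hyaluronan receptor gene, by 0.70 ± 0.03 and 0.69 ± 0.03. Cd44 and Mcam rose with Ras in NS cells by 0.65 ± 0.03 and 0.64 ± 0.05. F11r, a junctional adhesion molecule gene, was the 1 of the 9 whose Ras responses differed (0.56 ± 0.06, adjusted p = 9.42e-09), where 38.2% of all genes passed. Vcam1, another integrin ligand (named outside the rule, after its values were seen), had at most 6.5 counts in any library.

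Of 22 genes of NF-kB, the factor that many of the 10 genes are known to answer to, 20 were tested. With the knockdown 12 were higher and 3 lower without Ras (median log2 change 0.32), against 30.9% and 31.0% of all genes, and 13 and 2 with Ras (0.61), against 30.5% and 29.7%. With Ras 6 rose and 3 fell in NS cells (0.10), a share near the 42.1% of all genes that passed, and 11 rose and 1 fell in KD cells (0.19), against 19.5% and 16.6%. Nfkbia, the inhibitor and feedback target of NF-kB, was at 40.1 and 40.9 CPM in NS-DMSO cells, 41.7 and 40.1 CPM in NS-Ras cells, 58.5 and 56.4 CPM in KD-DMSO cells and 99.9 and 96.8 CPM in KD-Ras cells. Its Ras responses differed by 0.76 ± 0.08 (adjusted p = 3.45e-08) and those of Nfkb2, a subunit gene, by 0.44 ± 0.06 (adjusted p = 1.46e-06). Bcl3, which encodes a nuclear cofactor of NF-kB, was at 0.124 and 0.142 CPM (2 counts each) in NS-DMSO cells and 1.58 and 1.28 CPM in NS-Ras cells. It was at 5.46 and 4.85 CPM in KD-DMSO cells and 15.2 and 14.5 CPM in KD-Ras cells. Bcl3 rose with Ras in NS cells by 3.34 ± 0.53 (adjusted p = 7.24e-06 by edgeR). In KD cells it was higher by 5.19 ± 0.38 without Ras and by 3.38 ± 0.18 with Ras. Cyld, a deubiquitinase that restrains NF-kB, was lower in KD-DMSO cells (-0.62 ± 0.04), and Ikbkg, a subunit of the kinase that activates NF-kB, fell with Ras in NS cells (-0.40 ± 0.06).

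Leukocytes make several of the 10 proteins, so markers of other cells were measured in the same libraries. Markers of carcinoma keratinocytes (Krt5, Krt14, Trp63, Krt15, Cdh1 and Epcam) summed to 23066 and 22680 CPM in NS-DMSO cells and 10411 and 10723 CPM in NS-Ras cells. In KD-DMSO cells they summed to 14752 and 14000 CPM and in KD-Ras cells to 10476 and 9946 CPM. Most of the sum came from Krt5 (5520 to 13279 CPM) and Krt14 (2963 to 8662 CPM). These 2 genes and Krt15 were highest in NS-DMSO cells, whereas Trp63 and Epcam were lowest there and Cdh1 was lowest in NS-Ras cells. Of 8 immune markers 2 were at 0 in every library and 6 were under 1 CPM in every library. Their sum was 8.27 and 9.45 CPM in NS-DMSO cells, 7.99 and 7.47 CPM in NS-Ras cells, 5.65 and 5.73 CPM in KD-DMSO cells and 17.7 and 18.0 CPM in KD-Ras cells. The sum followed Cd68, a lysosomal gene, at 15.5 and 14.8 CPM in the last group, together with Csf1r, and its part in the results was not tested. The pan-leukocyte gene Ptprc had no counts in any KD library, and the macrophage gene Adgre1 and the T cell gene Cd3e had none in any library. Fibroblast markers summed to 1.14 to 4.39 CPM, with Col3a1 at 0 throughout. Endothelial markers summed to 23.0 to 38.3 CPM, mostly from Pecam1 (22.4 to 37.0 CPM). Cdh5 and Kdr had at most 1 count in any library. Tek, the remaining endothelial marker, was at 0.933 and 1.21 CPM in NS-DMSO cells and 0.695 and 0.513 CPM in NS-Ras cells. It was higher in KD cells, at 3.55 and 3.02 CPM in KD-DMSO and 3.91 and 2.81 CPM in KD-Ras cells. Pecam1, by contrast, was lower in KD-DMSO than in NS-DMSO cells. In bulk samples such as these, fewer cells making an RNA and less RNA per cell cannot be told apart.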

How the data were processed

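RNA of 8 libraries was sequenced, and the values deposited by the authors are estimated counts for each gene beside transcript lengths, in 1 table that was not normalized. Per the submitters' processing notes, TopHat, HOMER, DESeq2 and the build mm9 were used. No source used here gives versions, the strand setting or filters. Every value was a multiple of 0.5. The table had 24909 entries, 2 of which repeated a symbol and were dropped. Columns were matched to samples by name. The design had assumed whole counts, so the deposited estimated counts were rounded before testing.

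Genes kept by filterByExpr (12538, with 99.95% of the counts) were tested in edgeR 4.0.16 (R 4.3.3) with TMM scaling, a single model of all 8 libraries by group (4 residual degrees of freedom) and the robust quasi-likelihood F test, two-sided. Genes passed at an adjusted p of 0.05 (Benjamini-Hochberg, all tested genes), and each SE is the unshrunken fitted change over the root of F. The printed log2 changes are edgeR's shrunken ones, so a printed change over its SE need not equal the root of F. In simulated data with the same spread for all genes, the script recovered known changes for the knockdown without Ras. Recovery was not checked for genes with few counts or in the other comparisons. The coefficient of variation between libraries of a group beyond counting noise, edgeR's common estimate, was 3.37%, and it may be technical. CPM use the unrounded values. For groups with 3 or fewer counts, ratios have exact binomial intervals at 95% and the floor is 3 counts over the group, for counting error only. For correlations 0.5 was added to CPM.

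Groups follow the labels: NS and KD for the shRNA, DMSO and Ras for the treatment. The genes, the lists and the tests were chosen with earlier results of these data known. All 10 genes are named. From each list the text names up to 2 genes per comparison with the smallest p among those that passed, and as most similar genes the 3 with the highest correlation to Icam1, Cxcl1 and Csf1 at a mean of at least 5 CPM. DESeq2 1.42.0, RLE scaling, no filter, a replicate block, no Rn45s, only the 4 libraries compared and leaving out each library were tried.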

Additional observations from a re-analysis of the deposited data

Results flagged for a closer look

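For 6 of the 9 tested genes the Ras response in KD cells differed from that in NS cells by edgeR's test of the difference itself. The difference (KD minus NS, log2) was 0.92 for Cxcl16, 1.77 for Ccl2, 2.94 for Il1a, 1.12 for Il18 and 0.60 for Icam1, and it was -0.48 for Csf1. Of all tested genes 38.2% passed this test in either direction. The adjusted p over the alternatives stayed under 0.05 for Cxcl16, Il1a and Csf1, and exceeded it in at least 1 alternative for Ccl2, Il18 and Icam1.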

How the results depend on the processing

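The number of the 9 genes that passed in either direction was 4 for Ras in NS cells, 8 for Ras in KD cells, 8 for the knockdown without Ras, 8 with Ras and 6 for the difference of the Ras responses. With the replicate block these counts were again 4, 8, 8, 8 and 6. Deviations of same-numbered libraries were nearly uncorrelated (-0.0389 to 0.0573 over tested genes). Counting noise also lowers such correlations, so whether the numbers pair the samples cannot be told from them. Leaving out single libraries gave 3 to 4, 8 to 8, 8 to 8, 8 to 8 and 4 to 6, and DESeq2 gave 4 for the last. With only the 4 libraries compared, 6 of the 10 genes had enough counts for Ras in NS cells and 8 for the knockdown without Ras. Over all genes DESeq2 passed 3265 where edgeR passed 5281 for Ras in NS cells, 2628 against 4531 in KD cells and 2828 against 4791 for the difference. Of the recomputed changes of single genes 598 kept their direction and side of the threshold, 10 no longer passed and 9 turned sign, none of which had passed. All 9 came from leaving out 1 library of groups with few counts, and the cause was not tested. For Ras in NS cells the log2 changes without single libraries ran from -3.08 to 3.21 for Cxcl5 (-0.66 without NS-DMSO replicate 2), from -1.72 to 0.46 for Ccl2 (0.083 without NS-DMSO replicate 1) and from -0.14 to 0.083 for Il1a. They ran from -0.24 to 0.071 for Il18 with Ras in KD cells, and from -0.58 to 0.29 for Il1a with the knockdown without Ras (0.052 without NS-DMSO replicate 1). The difference for Cxcl5 ran from -0.50 to 5.79. Where a library was left out, the group's other library was taken to vary like the other groups.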

Other observations

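Some cytokine genes outside the 10, picked after their values were seen, were low in NS cells and present in KD cells. Tnf, the gene of tumour necrosis factor, had 3.5 and 1 counts in NS-DMSO and 3.5 and 0.5 in NS-Ras cells, and was at 0.764 and 1.44 CPM in KD-DMSO and 5.51 and 4.92 CPM in KD-Ras cells. It rose with Ras in KD cells by 2.24 ± 0.30 on the log2 scale (adjusted p = 1.73e-06 by edgeR), and the difference of the Ras responses did not pass (adjusted p = 0.11). Tslp, an epithelial alarm cytokine gene, had 1 count in NS-DMSO and 43 in KD-DMSO cells, 47.5 times as much per library size (95% interval 8.07 to 1917, for counting error), and 7 in NS-Ras and 144 in KD-Ras cells, 19.5 times as much (9.20 to 49.2). Il24, an IL-10 family cytokine gene, had 1.5 and 2.5 counts in NS-DMSO and NS-Ras and 21 and 49.5 in KD-DMSO and KD-Ras cells. Il1b and Il6, by contrast, had at most 2 counts in any library and Csf2 at most 0.5, so no difference was detectable for them at this depth.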
